A study of Macaca mulatta with 4 samples.

Results

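The transporters that load, clear and recycle glutamate, GABA and glycine were examined in single-nuclei RNA of the fetal rhesus macaque cerebellum. The members were the 9 genes whose symbols in the gene list were SLC17A6, SLC17A7, SLC32A1, SLC1A2, SLC1A3, SLC1A6, SLC6A5, SLC6A9 and SLC6A11, out of 30807 genes listed, and each symbol matched 1 row. They were read in the 32587 barcodes that held at least 500 genes. Nuclei came from flash-frozen cerebellum of 2 Control fetuses, which had no intervention, and of 2 LPS fetuses, whose mothers were given 1 mg of LPS from E. coli into the amniotic fluid some days before delivery, as a model of chorioamnionitis. Each fetus gave 1 library. The Control female and the Control male were 130 days of gestational age, the LPS female 131 days and the LPS male 133 days. No allele or cell sort was involved, and sex, age and library were not separated by the design, with 1 fetus of each sex in each group. Both LPS fetuses were older than both Controls, so that LPS and gestational age cannot be told apart.

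Fast excitatory neurons fill their synaptic vesicles with glutamate through the vesicular glutamate transporters, here SLC17A6 (VGLUT2) and SLC17A7 (VGLUT1). In the cerebellum SLC17A6 is known from young granule cells and climbing fibers, and SLC17A7 from the parallel fibers of mature granule cells. SLC32A1 (VGAT) loads both GABA and glycine into vesicles, and SLC6A5 (GlyT2) returns glycine to glycinergic terminals, which in this tissue are mainly those of Golgi cells. Released glutamate is cleared by SLC1A3 (GLAST) of Bergmann glia, by SLC1A2 (GLT-1) of astrocytes and by SLC1A6, the transporter of Purkinje cell spines. SLC6A9 (GlyT1) takes up glycine and SLC6A11 (GAT3) takes up GABA, both mainly in glia.

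The libraries held 34282015 to 61665690 unique molecular identifiers (UMIs), and 6905 to 9256 barcodes per library passed 500 genes. The libraries fell apart by the sex of the fetus rather than by treatment. The median number of UMIs per barcode was 4506 and 4062 in the Control female and the LPS female, and 1882 and 2308 in the Control male and the LPS male. The mean share of mitochondrial UMIs was 0.268 and 0.231% in the female libraries and 0.0214 and 0.0327% in the male libraries. Over the 20 sets of nuclei tested, the female and the male libraries did not overlap for 62.7% of genes, and the Control and the LPS libraries did not overlap for 17.2%. Sex and the making of the libraries cannot be told apart here. The LPS male stood apart further. Of its UMIs, 38.7% lay in barcodes with 500 genes, against 58.7 to 74.1% in the others, and 26.7% of its barcodes were in 2 clusters that took no name, against 4.03 to 6.62%. The larger of these 2 clusters had few UMIs and was led by RPS18 and PVALB, and 68.5% of the barcodes of the smaller one were called doublets. Barcodes shared by 2 libraries numbered 16 to 22 for each pair, where 7.93 to 11.7 would be shared by chance.

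Nuclei were grouped by clustering without the transporter genes, and 21 of 23 clusters took a name, nearly all from marker genes as "like" a cell type. Among the leading genes were GABRA6 and CBLN3 in the mature granule-like, ITPR1 and CA8 in the Purkinje cell-like and GFAP in the astrocyte-like nuclei. The microglia-like cluster had all 8 of its markers raised but was led by F13A1 and MRC1, which are known from macrophages. The granule lineage made up 22224 barcodes in 7 stages. In pseudotime, an ordering of nuclei by likeness that runs from 0 at the proliferating precursors to 1, the stages had median ranks of 0.0332 (proliferating precursor-like), 0.129 (committing granule-like), 0.28 (migrating granule-like), 0.414 (a granule-like stage led by ERBB4 and FRMD4B), 0.557 (maturing granule-like), 0.765 (later granule-like) and 0.905 (mature granule-like). Levels are given as CPM, which scales the counts of a gene to the total UMIs of all nuclei of a class in a library, with means and SDs over the 4 libraries. Nuclear RNA with introns counted favors long genes, so levels were compared between classes and libraries and not between genes. Classes came from the same nuclei that were measured, so differences between classes are described without a test.

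SLC17A6 was highest in the migrating granule-like nuclei. There it stood at 334 CPM in the Control female, 244 in the Control male, 363 in the LPS female and 288 in the LPS male, with a mean of 307 ± 52.1 (SD, n = 4). In the stage before, the committing granule-like nuclei, it had been at 41.9, 29.8, 22.3 and 62 CPM in the same order. All 4 libraries were thus higher in the migrating stage, by 3.03 ± 0.724 on the log2(CPM + 1) scale. From there the level was lower at each later stage, with means of 152 ± 34.9, 111 ± 23.2, 87.3 ± 22.2 and 74.1 ± 15.8 CPM (SD, n = 4). The ranges of these 4 later stages overlapped each neighbour, while the migrating range did not overlap the next class in the order. Between the migrating and the mature stage the log2 difference was -2.05 ± 0.32, with the same sign in 4 of 4 libraries.

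By its means SLC17A7 had 2 high points along the same lineage. In the migrating granule-like nuclei it was at 93.0 and 167 CPM in the Control female and male and at 82.8 and 132 CPM in the LPS female and male. In the maturing granule-like nuclei it was at 30, 47.2, 26.2 and 43.9 CPM. The log2 difference from the migrating stage was -1.65 ± 0.105, with the same sign in 4 of 4 libraries. In the mature granule-like nuclei it was again higher, at 70.9, 64.9, 48.9 and 120 CPM, a difference from the maturing stage of 0.993 ± 0.427 (SD, n = 4) on the log2 scale. This mature range overlapped those of the later stage, 32.5 to 84.6 CPM, and of the ERBB4 and FRMD4B stage, 26.8 to 74.1 CPM. The LPS male was the highest library in the mature stage and the LPS female the lowest, so the libraries of 1 group lay on either side of the Controls. The small class of unipolar brush cell-like nuclei, which are also glutamatergic, held SLC17A7 at 105, 171, 29.7 and 184 CPM, and its range overlapped that of the migrating stage. These values rested on 21 nuclei in the Control female, 8 in the Control male, 10 in the LPS female and 37 in the LPS male.

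**Figure D1:**
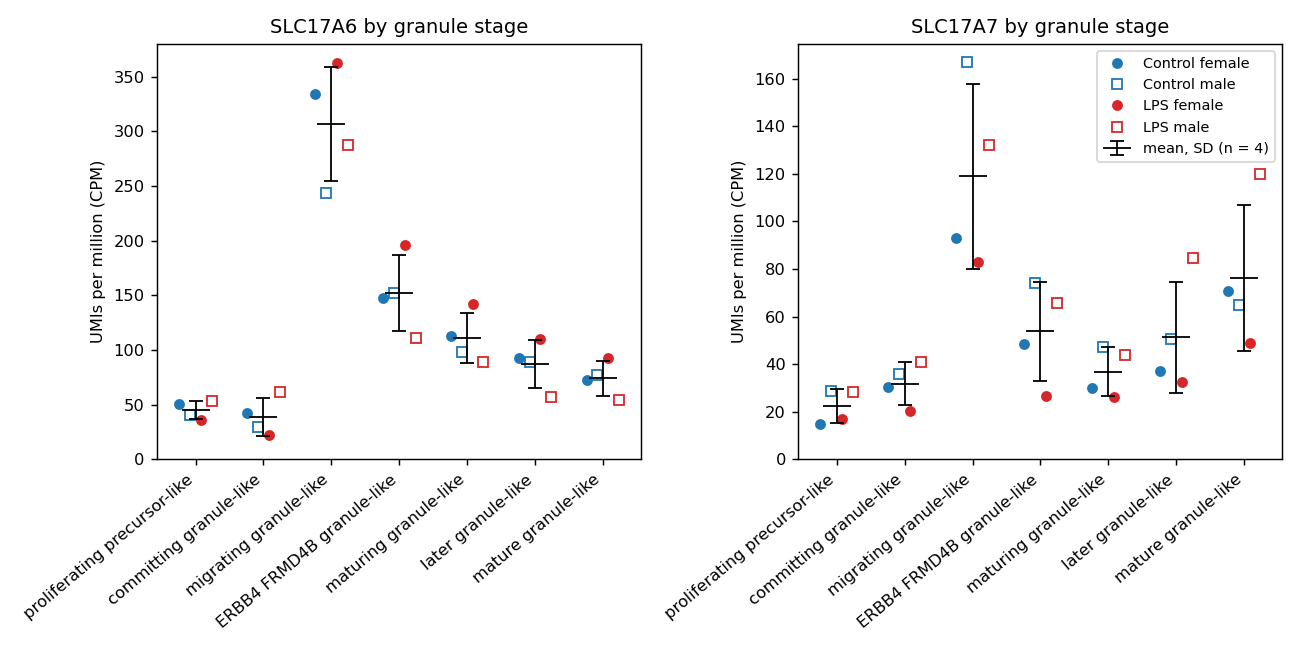
Levels of SLC17A6 (left) and SLC17A7 (right) in CPM on the vertical axes against the 7 granule stages in order of pseudotime; each point is 1 library, blue for Control and red for LPS, filled circles for female and open squares for male fetuses, with black bars for the mean and SD of the 4 libraries. SLC17A6 has 1 peak, at 307 CPM in the migrating stage, and SLC17A7 is high there and again in the mature stage, with means of 119 and 76.3 CPM.

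The ratio of both genes differed between the stages. The log2 ratio of SLC17A7 to SLC17A6 UMIs (each plus 1) averaged -1.04 in the proliferating precursor-like, -0.234 in the committing, -1.41 in the migrating, -1.56 in the ERBB4 and FRMD4B, -1.6 in the maturing, -0.829 in the later and -0.011 in the mature granule-like nuclei. Without the LPS male the mature mean was -0.398. With free RNA subtracted the mean was -2.16 in the proliferating precursor-like, -2.06 in the maturing and 0.0163 in the mature granule-like nuclei, so that the stage with the lowest mean changed. From the committing to the migrating stage the ratio differed by -1.17 ± 0.642, with the same sign in 4 of 4 libraries. With free RNA subtracted the LPS male went the other way, from -1.79 to -1.3, while the other libraries kept the sign. From the maturing to the mature stage it was higher by 1.88 in the Control female, 0.8 in the Control male, 1.5 in the LPS female and 2.16 in the LPS male. When granule-lineage nuclei were cut into 10 equal bins of pseudotime, the ratio was lowest in bin 4 in the Control female, at -2.01, and in the LPS male, at -1.26, in bin 7 in the Control male, at -1.29, and in bin 6 in the LPS female, at -2.51. In bin 10 it was -0.627, -0.36, -1.14 and 1.2 in the Control female, Control male, LPS female and LPS male. In bins 8 to 10 the LPS male alone was above 0, which is where SLC17A7 has more UMIs than SLC17A6. The Control male was above 0 once, at 0.115 in bin 2.

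**Figure D2:**
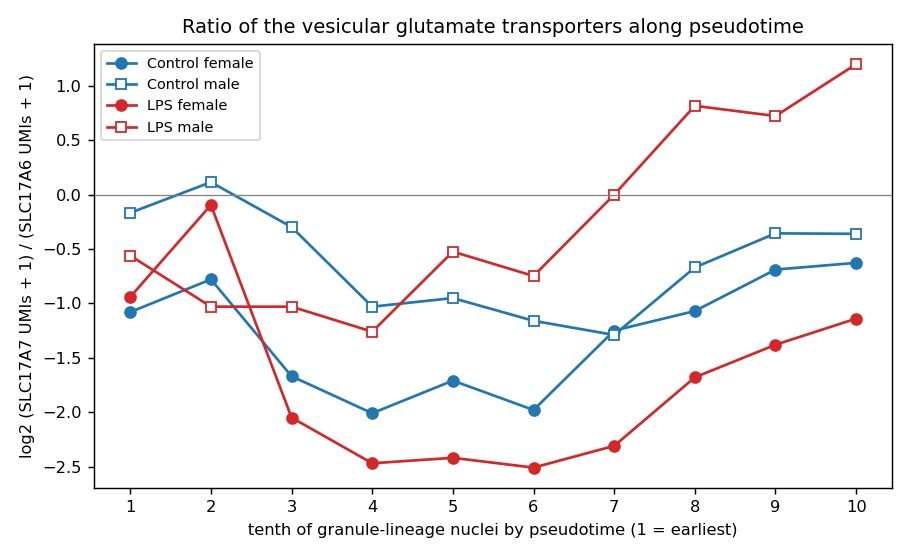
Log2 ratio of SLC17A7 to SLC17A6 UMIs (each plus 1) on the vertical axis against 10 equal bins of granule-lineage nuclei along pseudotime, 1 line per library with the colors and symbols named in the legend. The ratio is higher in bin 10 than in bin 6 in all 4 libraries, reaching 1.2 in the LPS male and -1.14 in the LPS female.

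The shares of single nuclei with a UMI depend on detection, so that a nucleus without one may still express the gene. After each barcode was thinned to 1000 UMIs, with 212 shallower barcodes left out, 25.1% of the migrating granule-like nuclei had a UMI of SLC17A6, 11.6% one of SLC17A7 and 3.2% had SLC17A6 and SLC17A7 (exact 95% interval 2.64 to 3.85%). Without thinning these shares were 49.3, 25.3 and 13.1%. In the mature granule-like nuclei, of which 44 were left out, the thinned shares were 6.56, 9.24 and 0.933%. These shares pool the libraries, and the LPS male gave 1536 of the 3260 mature granule-like nuclei. By summed UMIs, SLC17A7 was above SLC17A6 in this stage only in the LPS male. The log2 ratio was 1.15 there, against -0.916 to -0.0274 in the other libraries. Intervals of shares cover counting error only. Microglia-like nuclei, which should lack both, had a share of 0.797% for SLC17A6 and 1.2% for SLC17A7 in 251 thinned nuclei, at a median of 3300 UMIs before thinning against 2920 in the migrating stage. Purkinje cell-like nuclei had neither gene after thinning in 118 nuclei, and their SLC17A6 level was 4.38 to 16.3 CPM, where their free RNA share would give 4.14 to 6.47 CPM.

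Other members also differed along the granule lineage. SLC1A2, which is known as a glial glutamate transporter, was at 16.2, 15.1, 14.7 and 50.5 CPM in the maturing granule-like nuclei of the Control female, Control male, LPS female and LPS male, and at 86.7, 105, 84.7 and 140 CPM in the mature stage. The log2 difference was 2.24 ± 0.549 and had the same sign in 4 of 4 libraries. Thinned nuclei with a UMI of SLC1A2 made up 1.98% of the maturing and 10.1% of the mature granule-like nuclei. In barcodes with at most 100 UMIs, taken as free RNA, SLC1A2 was at 19.2 to 127 CPM. Free RNA made up an estimated 13.5 to 21.4% of the UMIs of granule nuclei, so that its part in the SLC1A2 level of the granule lineage came to 2.59 to 27.2 CPM. SLC6A9 went the other way, with 22.2, 36.5, 17.5 and 22.5 CPM in the migrating and 3, 5.11, 5.59 and 1.74 CPM in the mature stage, a log2 difference of -2.44 ± 0.678. The mature level of the LPS male, 1.74 CPM, was within what free RNA would give, and the other libraries lay above it. In free RNA SLC6A9 was at 12.6 to 20.8 CPM, and free RNA made up an estimated 9.75 to 19.1% of the UMIs of the mature stage. SLC1A6 was highest of the granule stages in the committing granule-like nuclei, at 72.9 ± 6.28 CPM, and at 35.0 ± 2.55 CPM in the mature stage. SLC1A3 ranged from 73.7 to 206 CPM over all 7 stages and 4 libraries, and its log2 difference between the committing and the mature stage was -0.759 ± 0.47. Free RNA would give 75.8 to 90.1 CPM of SLC1A3 in the granule lineage, which stood at 96.9 to 168 CPM, and in the mature stage of the LPS male 80.4 CPM against 73.7 measured. The part of free RNA in the stage difference was not tested.

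SLC6A5 was found in inhibitory neurons, with the highest level in one class. In the Golgi cell-like nuclei, 197 in number, it was at 429 CPM in the Control female, 368 in the Control male, 528 in the LPS female and 467 in the LPS male, a mean of 448 ± 67.1. The next class, the molecular layer interneuron-like nuclei, had 93.9 ± 23.8 CPM and the PAX2+ interneuron-like nuclei, the young interneurons, had 43.8 ± 17.1 CPM (SD, n = 4), and none of these 3 ranges overlapped the next. In the other classes with at least 10 nuclei in a library the mean was at most 4.95 CPM. Purkinje cell-like nuclei, which release GABA and not glycine, held 0 UMIs of SLC6A5 in all 4 libraries, where the 3 UMIs that a count of 0 allows would be 4.87 to 24.4 CPM. The Golgi cell-like class held 43.1 to 72.6% of all SLC6A5 UMIs of a library. SLC6A5 was left out of the genes used for clustering and of the markers, but was still among the 10 leading genes of the Golgi cell-like cluster.

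SLC32A1 gave only 360 UMIs over the 4 libraries, and its levels were correspondingly loose. In the Golgi cell-like nuclei it was at 28.6, 10.3, 90.4 and 23.7 CPM in the Control female, Control male, LPS female and LPS male, from 18, 4, 54 and 3 UMIs. The means were 15.8 ± 12.8 CPM in molecular layer interneuron-like, 14.9 ± 8.04 in PAX2+ interneuron-like and 13.6 ± 7.41 in Purkinje cell-like nuclei (SD, n = 4). These 4 classes of known GABAergic neurons overlapped one another. The Purkinje cell-like range lay above that of the next class, the maturing granule-like nuclei with 1.65 ± 1.10 CPM, but the LPS male's 2.33 CPM in molecular layer interneuron-like nuclei lay inside it. In the sum of all nuclei SLC32A1 was higher in both female libraries, at 3.25 and 4.96 CPM, than in both male libraries, at 1.24 and 1.54 CPM. The PAX2+ interneuron-like nuclei gave the same order, with 19.4 and 23.9 against 6.85 and 9.59 CPM. In free RNA SLC32A1 was at 17.1 and 18.4 CPM in the female and at 2.4 and 3.72 CPM in the male libraries, and the part of free RNA in this order was not tested.

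**Figure D3:**
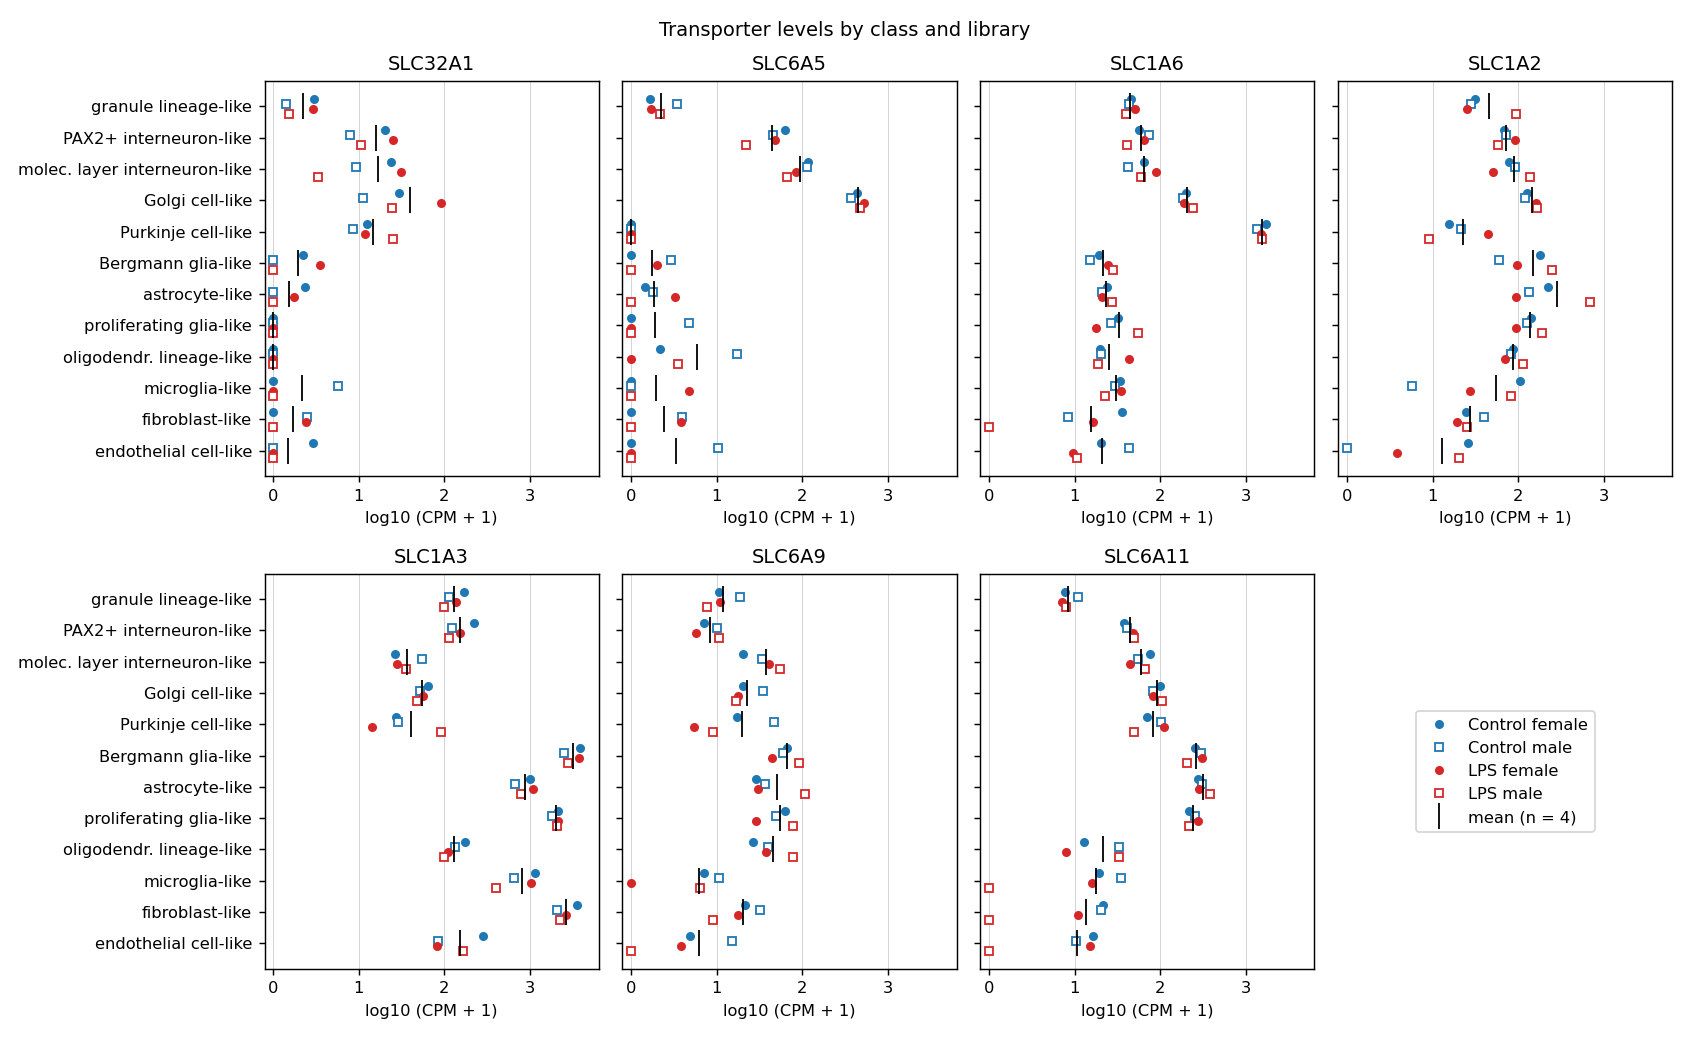
Levels of the other 7 transporter genes as log10 (CPM + 1) on the horizontal axes, for the granule lineage and 11 other classes on the vertical axis; points are libraries (blue Control, red LPS, filled circles female, open squares male) and black lines the means. SLC6A5 stands highest in Golgi cell-like nuclei at 448 CPM, SLC1A6 in Purkinje cell-like nuclei at 1530 CPM and SLC1A3 in Bergmann glia-like nuclei at 3210 CPM, while the LPS male is the highest library for SLC1A2 in the astrocyte-like nuclei at 683 CPM.

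SLC1A6 marked the Purkinje cell-like nuclei. It was at 1730, 1350, 1490 and 1530 CPM in the Control female, Control male, LPS female and LPS male, a mean of 1530 ± 159, from 1069, 527, 682 and 188 UMIs. The Golgi cell-like nuclei came next with 202 ± 24.5 CPM, and neither range overlapped the class after it. After thinning, 75.4% of Purkinje cell-like nuclei (exact interval 66.6 to 82.9%) and 16.8% of Golgi cell-like nuclei had a UMI of SLC1A6. Because Purkinje cell-like nuclei were few, 119 in all, they gave only 17.3 to 39.3% of the SLC1A6 UMIs of a library. The granule lineage, at 39.0 to 49.1 CPM, held 36.8 to 48.6%, and free RNA would give 17.1 to 22.9 CPM of SLC1A6 there.

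SLC1A3 was highest in Bergmann glia-like nuclei and was found in 89.8% of thinned Bergmann glia-like nuclei. Its level there was 3800, 2520, 3740 and 2800 CPM in the Control female, Control male, LPS female and LPS male, a mean of 3210 ± 654. The female libraries lay above the male ones, whatever the treatment. Fibroblast-like nuclei had 2620 ± 663 CPM, proliferating glia-like nuclei 2030 ± 144, astrocyte-like nuclei 882 ± 186 and microglia-like nuclei 801 ± 335 (SD, n = 4). The fibroblast-like range overlapped those of the Bergmann glia-like and the proliferating glia-like nuclei, which did not meet each other, and the proliferating glia-like range did not reach that of the astrocyte-like nuclei. The Bergmann glia-like class held 44.9 to 49.0% of all SLC1A3 UMIs of a library. Barcodes called doublets made up 20.2% of this class and 12.1% of the fibroblast-like class. Without doublets the Bergmann glia-like mean was 3990 CPM.

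SLC1A2 had no class that stood clear. Its highest mean, in the astrocyte-like nuclei, rested on 1 library, with 219, 134, 92.9 and 683 CPM in the Control female, Control male, LPS female and LPS male. Without the LPS male the mean was 149 CPM, against 282 ± 272 with it. Bergmann glia-like nuclei had 180, 58.4, 96.1 and 250 CPM in the same order, and Golgi cell-like nuclei 126, 118, 161 and 166 CPM. The Golgi cell-like nuclei thus overlapped both glial classes, with 13.2% of thinned nuclei holding a UMI against 16.6% of the astrocyte-like nuclei. Purkinje cell-like nuclei were low, at 8.14 to 43.8 CPM.

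The uptake genes for GABA and glycine were led by glia. SLC6A11 was at 278, 305, 284 and 384 CPM in the astrocyte-like nuclei of the Control female, Control male, LPS female and LPS male. Bergmann glia-like nuclei had 263 ± 45.8 CPM and proliferating glia-like nuclei 240 ± 26.9 (SD, n = 4), and the Bergmann glia-like range overlapped both others, while the astrocyte-like nuclei, from 278 CPM, lay above the proliferating glia-like nuclei, up to 272 CPM. Golgi cell-like and Purkinje cell-like nuclei had 91.0 ± 10.5 and 82.2 ± 28.6 CPM, and the granule lineage 6.03 to 9.85 CPM. SLC6A9 was at 65.4, 59.0, 43.7 and 89.8 CPM in the Bergmann glia-like nuclei and at 27.9, 35.7, 29.0 and 107 CPM in the astrocyte-like nuclei, again with the LPS male highest. Its ranges overlapped between glial classes, oligodendrocyte lineage-like nuclei with 44.7 ± 22.6 CPM included. The granule lineage nevertheless gave 21.3 to 47.7% of the SLC6A9 UMIs of a library, since it was the largest class.

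Of the 28 other genes of amino acid transmitter handling that were listed, 24 were in the gene list used here. For some classes the gene with the most UMIs is named here, which also depends on gene length. It was GAD1, an enzyme that makes GABA, in the PAX2+ interneuron-like nuclei (652 ± 43.7 CPM), the Golgi cell-like nuclei (596 ± 31.7) and the molecular layer interneuron-like nuclei (398 ± 58.9). In Bergmann glia-like nuclei it was SLC38A1, a glutamine transporter, at 261 ± 121 CPM. SLC1A1, another glutamate transporter, led in oligodendrocyte lineage-like nuclei at 440 ± 114 CPM, and SLC38A5 in endothelial cell-like nuclei at 518 ± 257 CPM (SD, n = 4 throughout).

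The genes most like each member were sought by the correlation of log2(CPM + 1) over 73 sums of a class in a library, which share libraries and so are not independent. SLC17A6 and SLC17A7 had the same closest gene, SV2B, a synaptic vesicle protein, with r of 0.82 and 0.794. The next for SLC17A6 were CACNA2D1 and GLDN, and for SLC17A7 NPR1 and SLC17A6 itself, at 0.716. For SLC6A5 they were PAX2 at 0.865, CACNG3 and CNIH3. For SLC6A11 they were GRIA1, an AMPA receptor subunit, at 0.858, SCUBE2 and TSPAN2, and for SLC1A3 they were TAB2 and PTN, both at 0.822. SLC1A6 was closest to NUP93 and DNER, at 0.769 and 0.746. For SLC1A2 (UNC80, CNTFR) and SLC6A9 (BAALC, CCDC191, CHDH) no gene passed 0.715, and for SLC32A1 the nearest named genes were SIAH3 at 0.773 and TFAP2A at 0.756. PAX2, GRIA1 and PTN were among the markers that had named the classes.

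Control and LPS were compared to ask whether intra-amniotic LPS changed any transporter within a class. By edgeR's quasi-likelihood test on UMIs summed per library, with Benjamini-Hochberg adjustment over all genes, no transporter gene was called in any of the 20 sets of nuclei, in 126 tests that passed the filter on low counts. To be called, a gene had to pass an adjusted p of 0.1 and to differ by more than 0.25 on the log2 scale. Among all genes 0% were called as well, and 895 of 191390 tests had an unadjusted p under 0.05. DESeq2 called 10 genes over the 20 sets (0.00522% of tests) and no transporter gene. With sex as a replicate block 0.0543% of all tests were called, and without the filter 0.0437%, again with no transporter gene. None of the 126 transporter tests had an unadjusted p under 0.05 by edgeR and 1 did by DESeq2. With the sex block 6 of the 126 did, the lowest at 0.00355 for SLC32A1 in Golgi cell-like nuclei (edgeR adjusted p = 0.999), and without the filter 6 of 177. Over all genes, 0.4% of tests were under 0.05 by DESeq2, 3.21% by edgeR with the sex block and 1.11% without the filter. The lowest edgeR p of a member, for SLC1A2 in the ERBB4 and FRMD4B stage, was 0.0689, with an adjusted p of 1. The members' log2 fold changes ran from -1.36 to 1.65 with a median of -0.0135, 60 of them above and 66 below 0. The smallest adjusted p was 0.999. The LPS and the Control libraries did not overlap in 19 of the 126 tests (15.1%), 9 above and 10 below, against 17.2% of all genes. The female and the male libraries did not overlap in 62 of them (49.2%), against 62.7% of all genes.

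**Figure D4:**
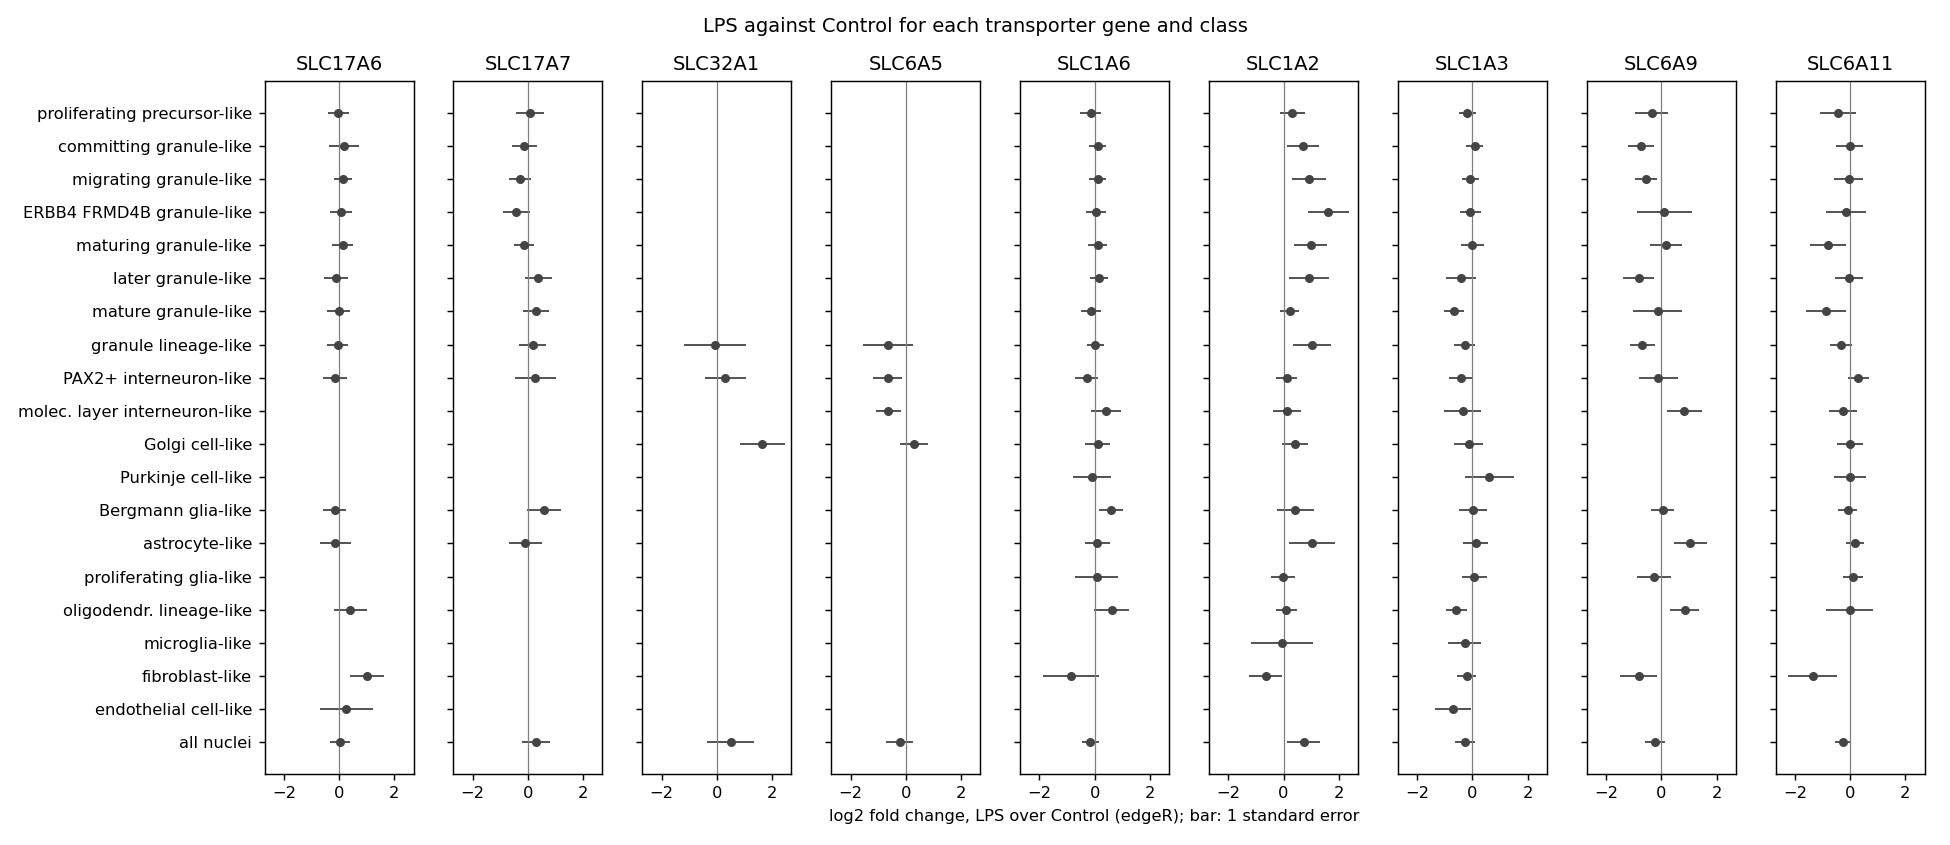
Log2 fold change of LPS over Control (horizontal axes) for each transporter gene, 1 panel per gene, in each of the 20 sets of nuclei in which it passed the filter (vertical axis); bars are 1 standard error from edgeR with 2 libraries per group. The points run from -1.36 to 1.65 and none passed the adjusted threshold.

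SLC17A6 and SLC17A7 did not differ detectably between the groups. In the granule lineage SLC17A6 was at 125 and 106 CPM in the Control female and male and at 143 and 82.5 CPM in the LPS female and male, a log2 fold change of -0.041 ± 0.382 (SE). SLC17A7 was at 46.6 and 67.4 CPM in the Controls and at 37.2 and 89.3 CPM in the LPS libraries, a log2 fold change of 0.165 ± 0.498. In both genes the LPS libraries lay on either side of the Controls. Both female libraries lay above both male ones for SLC17A6 and below them for SLC17A7, whatever the treatment. In the granule lineage the female and the male libraries did not overlap for 68.2% of all genes. In the migrating stage the fold change of SLC17A6 was 0.151 ± 0.323, and in the mature stage that of SLC17A7 was 0.284 ± 0.473. The log2 ratio of SLC17A7 to SLC17A6 in the granule lineage was -1.42 and -0.659 in the Controls and -1.95 and 0.114 in the LPS female and male. LPS minus Control came to 0.124, with an exact two-sided permutation p of 1, where 2 against 2 libraries cannot give less than 0.333. Over the 7 stages this difference ran from -0.484 to 0.469, with an exact p of 0.667 or 1. Mature granule-like nuclei made up 35.3% of the granule lineage in the LPS male and 8.47 to 10.2% in the other libraries. Within the mature stage itself the ratio was 1.15 in the LPS male, against -0.25, -0.027 and -0.916 in the Control male, Control female and LPS female.

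In the granule lineage and in astrocyte-like nuclei the difference of SLC1A2 rested on the LPS male. In the granule lineage it was at 30.6, 27.3 and 24.4 CPM in the Control female, Control male and LPS female and at 94.0 CPM in the LPS male. The log2 fold change was 1.03 ± 0.68 with the LPS male and -0.247 without it. In astrocyte-like nuclei the fold change was 1.04 ± 0.827, and -0.893 without the LPS male. In Golgi cell-like nuclei both LPS libraries, at 161 and 166 CPM, lay above the Controls, at 126 and 118 CPM, and the fold change was 0.404 ± 0.47, and 0.505 without the LPS male. The groups did not overlap for 17.2% of all genes in this class, of which the LPS male had 15 nuclei. The LPS male was the highest library in all 7 granule stages, from 31.6 to 140 CPM. In free RNA it had 127 CPM of SLC1A2 against 19.2 to 51.6 CPM in the other libraries, and with free RNA subtracted the granule lineage was at 84.9 CPM against 22.9 to 28.6. The cause of the difference was not tested. In the ERBB4 and FRMD4B stage SLC1A2 was called when the LPS female was left out (log2 fold change 2.31, adjusted p = 0.0504 by edgeR). This was the only call of a member under any alternative.

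The remaining members gave small or loose differences. In Bergmann glia-like nuclei the log2 fold change of SLC1A3 was 0.031 ± 0.506 and that of SLC6A11 -0.091 ± 0.351, and in Purkinje cell-like nuclei that of SLC1A6 was -0.096 ± 0.693. SLC6A5 had 0.304 ± 0.504 in Golgi cell-like, -0.654 ± 0.53 in PAX2+ interneuron-like and -0.631 ± 0.446 in molecular layer interneuron-like nuclei. In Golgi cell-like nuclei the LPS libraries, at 528 and 467 CPM, lay above the Controls, at 429 and 368 CPM, and in molecular layer interneuron-like nuclei, at 83.7 and 65.1 CPM, below the Controls, at 116 and 111 CPM. The groups did not overlap for 17.2% of all genes in the first and 20.5% in the second class. SLC6A9 in astrocyte-like nuclei had 1.05 ± 0.598, and -0.055 without the LPS male. SLC32A1 in Golgi cell-like nuclei had 1.65 ± 0.817. It was higher with LPS within each sex, by 1.63 in the females and 1.13 in the males on the log2(CPM + 1) scale, from 3 UMIs in the LPS male, and came to -0.004 without the LPS female. Of the other transmitter-handling genes 23 passed the filter somewhere, and 0 of 309 tests were called by edgeR or by DESeq2. An unadjusted p under 0.05 was found in 4 of these tests by each tool. Over all genes 0.468% of tests had one by edgeR and 0.4% by DESeq2.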

How the data were processed

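Each library was 1 fetus, sequenced with 10x Genomics 3′ v3.1 chemistry. The authors mapped the reads with Cell Ranger to Mmul_8.0.1 with introns counted (the paper and the submitters' processing notes differ on the version, and the notes name version 4). The deposited values are UMI counts per gene and barcode, neither normalized nor filtered; the ambient RNA removal that the paper describes is not in them. Members, lists and alternatives were chosen with earlier results of these data known.

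Barcodes with at least 500 genes were kept. The study's number of nuclei is lower in 3 libraries and higher in the LPS female. Libraries were integrated with Seurat 5.3.0 (R 4.3.3; 2000 variable features without the transporter and list genes, 30 dimensions, resolution 0.5). A cluster took the class whose markers had the highest mean log2 difference, if that was at least 0.4 and 3 markers were raised; the 0.4 was set after the scores were seen. A cluster with a median UMI count under 1/3 of its libraries' and no own marker among its 10 leading genes stayed unnamed. A cluster led by proliferation markers was called glia where the next list was glial, and a cluster nearest the maturing granule list, without any of its markers among the leading genes, was called by ERBB4 and FRMD4B. Scrublet marked 5.33 to 7.39% of barcodes as doublets, which were kept; its threshold failed in both male libraries, where the median of the other libraries' thresholds was used. Free RNA was profiled in barcodes with at most 100 UMIs, and its share per class was the 0.25 quantile of the ratios of other classes' markers. Pseudotime was a diffusion pseudotime (scanpy 1.11.5, 30 neighbours).

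UMIs summed per class and library were tested with edgeR 4.0.16 (filterByExpr, TMM, glmQLFit, glmQLFTest) where each library had at least 10 nuclei, with DESeq2 1.42.0 as the other tool. The unipolar brush, choroid or ependymal and mural cell-like classes were not tested. All 9 members were named; of the 28 list genes (SLC6A12, SLC6A13, GLUD1 and GCSH not analysed here) those called, or else the one with the most UMIs in a class, were named. Some genes that these rules pick are not reported here. Likeness used genes with at least 20 CPM in at least 4 sums of at least 20 nuclei. The code of the count tests was run on simulated data with known changes. Of changes of 2 on the log2 scale, 6.35% were called in the granule lineage, 25% in Bergmann glia-like and 17.9% in Purkinje cell-like nuclei. Of changes of 4, 90.6 to 98.4% were called. A gene not called may thus still differ, also by a large change. Fetuses were the replicates, 2 per group. Depth limits small classes most: the LPS male had 15 Golgi cell-like and 15 Purkinje cell-like nuclei.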

Additional observations from a re-analysis of the deposited data

Results flagged for a closer look

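With 1 fetus of each sex per group, LPS minus Control could be formed once in the females and once in the males, and it had opposite signs in 9 of the 18 gene differences formed and in 7 of 8 ratios, which are given here. The other 9 gene differences had the same sign in both sexes. Among them was SLC6A5, higher with LPS in Golgi cell-like and lower in PAX2+ and molecular layer interneuron-like nuclei. Another was SLC32A1 in Golgi cell-like nuclei, which rested on few UMIs in the males. The difference between the sexes was not tested, and sex cannot be told apart from the library. For the log2 ratio of SLC17A7 to SLC17A6 in the granule lineage, the difference was -0.525 in the females and 0.773 in the males, so that the male difference exceeded the female one by 1.3. By stage the male minus the female difference was -1.07 in proliferating precursor-like, -1.17 in committing granule-like, 1.53 in the ERBB4 and FRMD4B stage, 0.553 in maturing, 1.81 in later and 2.29 in mature granule-like nuclei. With free RNA subtracted the male difference turned from 0.278 to -0.0314 in the ERBB4 and FRMD4B stage and from 0.0396 to -0.731 in maturing granule-like nuclei, and then had the sign of the female one, which left 5 of 8 ratios with opposite signs.

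For single genes, as log2(CPM + 1), the male minus the female difference in the granule lineage was -0.55 for SLC17A6, 0.718 for SLC17A7 and 2.06 for SLC1A2. It was 1.4 for SLC17A7 in mature granule-like nuclei, 3.57 for SLC1A2 in astrocyte-like nuclei and 2.98 for SLC1A2 in Bergmann glia-like nuclei. In Bergmann glia-like nuclei it was 0.175 for SLC1A3 and -0.797 for SLC6A11, and in Purkinje cell-like nuclei 0.396 for SLC1A6.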

How the results depend on the processing

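Outside the single granule stages no transporter gene was called under the alternatives run. In the granule stages 0 to 1 were called as each library was left out, the 1 being SLC1A2 in the ERBB4 and FRMD4B stage without the LPS female. With a library left out, the lone sample of its group is assumed to vary like the others. Calls over all genes and the 20 sets numbered 0 as reported, 10 with DESeq2, 154 without the filter on low counts, 2 with free RNA subtracted, and 93 (without the Control male), 184 (without the Control female), 227 (without the LPS male) or 294 (without the LPS female) as each library was left out. With sex as a replicate block they numbered 104, none of them a transporter gene. The labels give no pairing of animals, but libraries of the same sex deviated together from their group means (r = 0.641 over 13161 genes).

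The sign of LPS against Control turned with single libraries. As each library was left out, the log2 fold change ran from -0.499 to 0.306 for SLC17A6 and from -0.603 to 0.659 for SLC17A7 in the granule lineage, from -0.098 to 0.495 for SLC17A6 in migrating and from -0.417 to 0.744 for SLC17A7 in mature granule-like nuclei. For SLC1A2 it ran from -0.247 to 1.69 in the granule lineage, from -0.893 to 1.82 in astrocyte-like and from -0.32 to 1.65 in Bergmann glia-like nuclei. For SLC1A3 it ran from -0.323 to 0.504 in Bergmann glia-like and from -0.228 to 0.595 in astrocyte-like nuclei. It ran from -0.375 to 0.296 for SLC1A6 in Purkinje cell-like, from -0.004 to 2.79 for SLC32A1 in Golgi cell-like, from -0.055 to 1.67 for SLC6A9 in astrocyte-like and from -0.503 to 0.215 for SLC6A11 in Bergmann glia-like nuclei. The LPS minus Control difference of the log2 ratio of SLC17A7 to SLC17A6 ran from -0.906 to 1.15 in the granule lineage and, by stage in order, from -0.494 to 0.745, -0.629 to 0.101, -1.08 to 0.22, -1.54 to 0.57, -0.944 to 0.471, -0.69 to 1.63 and -0.777 to 1.29. It was -0.0889 in proliferating precursor-like nuclei at clustering resolution 1. The causes were not tested. Of 216 alternatives for log2 fold changes 196 kept the sign and the side of the threshold.

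Of 81 alternatives for levels, 3 moved by more than 1 SD: SLC1A3 in Bergmann glia-like nuclei to 3990 CPM without doublets and 4040 with free RNA subtracted, and SLC6A11 in astrocyte-like nuclei to 375 with free RNA subtracted. The class with the highest mean was the same under 10 settings for 8 members. For SLC17A7 it became the unipolar brush cell-like class in 2, without the Control male and without the LPS female. These means left out libraries with fewer than 10 nuclei of a class. The Control male, with 8 unipolar brush cell-like nuclei, thus did not enter that class's main mean of 106 CPM, against 119 CPM in the migrating stage.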

Other observations

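Beyond the transporters themselves, the cation-chloride cotransporters that help to set the sign of GABA and glycine responses differed along the granule lineage. These 2 genes of the fixed list were chosen after their values were seen. SLC12A5 (KCC2), which lowers chloride in mature neurons, was at 2.95, 2.85, 0.308 and 1.8 CPM in the migrating granule-like nuclei of the Control female, Control male, LPS female and LPS male. These levels came from 13, 5, 1 and 2 UMIs, so the size of a log2 difference from them is loose. In the mature granule-like nuclei SLC12A5 was at 39.8, 53.3, 36.8 and 54.0 CPM, higher by 4.08 ± 0.637 (SD, n = 4) on the log2(CPM + 1) scale in 4 of 4 libraries. SLC12A2 (NKCC1), which raises chloride, was also higher in the mature stage, by 1.21 ± 0.0725. Molecular layer interneuron-like nuclei held SLC12A5 at 99.7 to 147 CPM and Purkinje cell-like nuclei at 50.3 to 261 CPM.

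The unipolar brush cell-like nuclei, which were too few to be tested (8 to 37 per library), held SLC17A6 at 105, 128, 178 and 86.7 CPM in the Control female, Control male, LPS female and LPS male. The 3371 barcodes of the clusters without a name held SLC17A6 at 90.2 to 125 CPM and SLC1A2 at 16.4 to 108 CPM, the LPS male being the highest for SLC1A2.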
